A study of Rattus norvegicus with 6 samples.

Results

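Macrophage scavenger and phagocytic receptors were followed in Sprague-Dawley rats, in lumbar spinal cord, after intrathecal lidocaine. The group comprises 10 genes, chosen by name as such receptors with earlier results of these data known: Msr1, Marco, Cd36, Scarb1, Olr1, Mrc1, Cd163, Stab1, Cd68 and Mertk. Each of the 10 had a single transcript cluster naming it alone, so all 10 were measured among 20530 named genes. The lidocaine group was 3 rats given 20 µL of a 10% solution of lidocaine, which numbs nerves by closing their voltage-gated sodium channels, into the fluid space around the cord. The control group was 3 rats that received no treatment and no injection, so the effects of the drug and of the injection cannot be told apart. Segments L2 to L6 were taken on day 4 after behavioural tests, and each rat gave 1 Affymetrix array. The labels give neither age nor sex. Every value below is the deposited log2 value after RMA, a method that corrects background and equalises arrays, so a difference of 1 is a 2-fold change.

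Scavenger receptors are surface proteins that bind modified lipoproteins, cell debris, microbial surfaces and protein complexes and carry them into the cell. Phagocytic receptors such as MERTK recognise lipids exposed on dying cells, through bridging proteins, and start engulfment. In the spinal cord these genes are read in microglia, in macrophages of the meninges and vessel walls, in macrophages entering from blood and, for some, in endothelium or astrocytes. In whole tissue, more cells of a type and more RNA per cell cannot be told apart.

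Of the 10 receptors, 8 rose after lidocaine, 0 fell and 2 did not pass (limma, adjusted p under 0.05 over all genes, 3 rats per group), where 9.7% of all 20530 genes rose and 14% fell. Since the receptors were chosen with earlier results known, this share is given for scale. At an unadjusted p under 0.05 also 0 receptors fell. The lysosomal glycoprotein gene Cd68 and the class A scavenger receptor gene Msr1 rose 5.68-fold and 5.39-fold, Olr1 3.94-fold, Cd163 2.78-fold, Cd36 2.63-fold and Mrc1 2.52-fold. Stab1 and Mertk rose by less, 1.54-fold and 1.53-fold. Marco and Scarb1 did not pass, with log2 changes of 0.08 and 0.10. The rises of 6 members were at least 2-fold, as were those of 1.78% of all genes. The median log2 change was 1.37 over the 10 receptors and -0.01 over all genes.

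**Figure D1:**
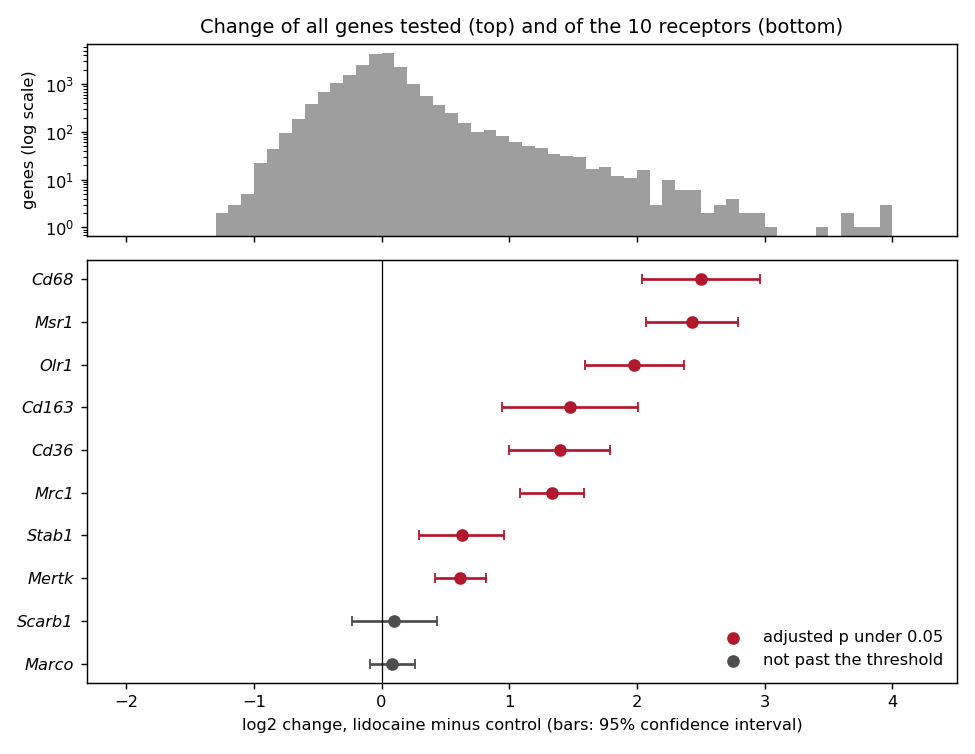
Log2 change, lidocaine minus control, of all 20530 genes as a histogram with a log count axis (top) and of each receptor with its 95% confidence interval from the fit (bottom). Red points passed adjusted p 0.05. Cd68 and Msr1 lie far to the right, at 2.51 and 2.43, while the intervals of Scarb1 and Marco include 0.

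The start regions of 5 receptors are shown because they span the range of responses: Cd68, Olr1, Mrc1 and Cd163, which rose, and Marco, which did not pass. Each run is the 250 bases before the start site given for the gene in a table made from RefSeq's GRCr8 assembly, which held 8 of the 10 members, 5′ to 3′ on the gene's strand. The table does not name the transcript behind a start site. The site is the outer edge of the annotated gene for Cd68 and Mrc1, and lies 23 bases inside that edge for Cd163, 535 for Olr1 and 9085 for Marco, so the Olr1 and Marco runs lie within the annotated gene. Among those not shown it lies 15 bases inside for Stab1, 638 for Mertk and 37494 for Cd36. Capitals mark matches on either strand to GAGGAA (the core bound by PU.1, a transcription factor of myeloid cells), TGANTCA (AP-1) or AGGTCA (a nuclear receptor core), while TTCNNNGAA (STAT) matched no member.
Cd68 (chr10:54882442-54882691, minus strand): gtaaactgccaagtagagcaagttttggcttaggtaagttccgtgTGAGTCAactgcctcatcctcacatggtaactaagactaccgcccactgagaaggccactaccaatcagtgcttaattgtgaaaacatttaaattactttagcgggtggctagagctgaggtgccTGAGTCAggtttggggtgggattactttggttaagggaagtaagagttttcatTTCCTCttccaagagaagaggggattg
Olr1 (chr4:164634548-164634797, minus strand): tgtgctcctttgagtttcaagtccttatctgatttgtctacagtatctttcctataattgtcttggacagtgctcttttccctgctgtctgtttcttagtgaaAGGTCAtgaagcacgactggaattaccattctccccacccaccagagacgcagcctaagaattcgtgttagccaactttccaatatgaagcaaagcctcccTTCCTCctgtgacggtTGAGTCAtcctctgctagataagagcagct
Mrc1 (chr17:82157475-82157724, plus strand): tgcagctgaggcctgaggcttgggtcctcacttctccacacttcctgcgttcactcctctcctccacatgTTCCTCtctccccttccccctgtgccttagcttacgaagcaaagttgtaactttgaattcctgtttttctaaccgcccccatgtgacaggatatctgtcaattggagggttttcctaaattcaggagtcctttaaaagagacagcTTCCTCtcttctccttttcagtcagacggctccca
Cd163 (chr4:158770524-158770773, plus strand): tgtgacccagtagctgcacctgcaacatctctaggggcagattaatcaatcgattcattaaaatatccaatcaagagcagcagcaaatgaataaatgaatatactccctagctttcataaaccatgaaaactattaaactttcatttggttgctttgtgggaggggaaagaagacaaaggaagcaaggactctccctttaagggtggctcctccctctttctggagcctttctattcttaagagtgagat
Marco (chr13:34201256-34201505, minus strand): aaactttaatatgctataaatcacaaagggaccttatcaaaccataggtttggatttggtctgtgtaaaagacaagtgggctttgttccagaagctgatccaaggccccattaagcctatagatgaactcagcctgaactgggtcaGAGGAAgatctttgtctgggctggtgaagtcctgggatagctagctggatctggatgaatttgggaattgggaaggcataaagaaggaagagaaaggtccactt
GAGGAA or its reverse complement was found in 6 of the 8 members with a sequence, Cd36, Cd68, Marco, Mrc1, Olr1 and Stab1, and in 23.2% of 27457 start regions of the same length. TGANTCA was found in Cd68, with 2 matches, and in Olr1, against 6.36% of all start regions. AGGTCA was found in Olr1 alone among the 8, against 13.7% of all. No searched motif was found for Cd163, which rose, and GAGGAA was found for Marco, which did not pass. In none of the 5 shown regions do matches to different motifs overlap. These are matches of letters in a fixed window, and binding was not measured.

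The class A scavenger receptors MSR1 and MARCO are trimers with a collagen-like stalk that bind oxidised and acetylated lipoproteins and bacteria. Msr1 read 6.60, 6.41 and 5.96 in the lidocaine rats, against 4.05, 3.81 and 3.82 in the control rats. The groups were far apart, with the third lidocaine rat lowest of its group. The log2 change was 2.43 ± 0.16 (SE, adjusted p = 0.000125), the 25th largest rise of all genes. Marco read 3.56, 3.69 and 3.62 in the lidocaine rats and 3.64, 3.42 and 3.55 in the control rats, so the groups overlapped. Its log2 change was 0.08 ± 0.08 (SE, adjusted p = 0.494), with a 95% confidence interval of -0.09 to 0.26. The transcript cluster annotated as Marco carries chromosome 16 in its name, whereas RefSeq places Marco on chromosome 13. For the other 9 receptors these chromosomes were the same, as they were for 99.1% of 19458 genes compared, so whether this cluster measures Marco is uncertain.

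The class B receptors CD36 and SR-B1 are hairpin-shaped membrane proteins. CD36 takes up oxidised lipoprotein and long-chain fatty acids, and SR-B1, encoded by Scarb1, draws cholesterol esters from high-density lipoprotein. Cd36 read 4.99, 5.12 and 4.98 in the lidocaine rats, against 3.21, 3.95 and 3.75 in the control rats. Its lidocaine values were close together and all above the more widely spread controls. The log2 change was 1.40 ± 0.17 (SE, adjusted p = 0.00183). RefSeq lists genes named Cd36l1 and Cd36-ps1 on the same chromosome, which had no cluster of their own among the named genes, and whether their transcripts add to this signal was not tested. Scarb1 read 5.72, 5.45 and 6.04 in the lidocaine rats and 5.53, 5.77 and 5.61 in the control rats. Lidocaine rats held both the highest and the lowest of its 6 values. Its log2 change was 0.10 ± 0.14 (SE, adjusted p = 0.675, 95% confidence interval -0.23 to 0.43), and without lidocaine rat 3 it was -0.05.

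The lectin-type receptors are LOX-1, encoded by Olr1, which binds oxidised LDL, and the mannose receptor MRC1, which takes up glycoproteins with terminal mannose. The symbol Olr1 is matched here by gene identifier to the oxidised LDL receptor. Olr1 read 5.16, 5.43 and 4.68 in the lidocaine rats, against 3.10, 3.08 and 3.16 in the control rats. The controls were nearly equal and lay just above the middle of the negative control probes, whose median on those arrays was 2.65 to 2.75. The log2 change was 1.98 ± 0.17 (SE, adjusted p = 0.000398). Mrc1 read 6.13, 6.54 and 6.39 in the lidocaine rats, against 5.08, 5.05 and 4.94 in the control rats, with no overlap. Its log2 change was 1.34 ± 0.11 (SE, adjusted p = 0.000304).

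CD163 is the macrophage receptor for haemoglobin bound to haptoglobin, and stabilin-1, encoded by Stab1, clears acetylated lipoprotein and matrix fragments in macrophages and sinusoidal endothelium. Cd163 read 5.70, 5.72 and 4.83 in the lidocaine rats, against 4.13, 3.78 and 3.91 in the control rats. All lidocaine values were higher, with rat 3 well below the other lidocaine rats. The log2 change was 1.47 ± 0.23 (SE, adjusted p = 0.00469). Stab1 read 5.23, 5.40 and 5.81 in the lidocaine rats, against 4.79, 4.98 and 4.78 in the control rats. The groups did not overlap, and here rat 3 was the highest. Its log2 change was 0.63 ± 0.14 (SE, adjusted p = 0.0174), a call that was lost without control rat 1 (adjusted p = 0.0535) or control rat 3 (adjusted p = 0.064).

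CD68 is a heavily glycosylated protein of the lysosomal membrane of phagocytes, widely used to stain active macrophages and microglia. Cd68 read 7.20, 7.17 and 7.96 in the lidocaine rats, against 4.77, 5.02 and 5.02 in the control rats. The groups were far apart, and rat 3 was the highest. The log2 change was 2.51 ± 0.20 (SE, adjusted p = 0.000302), ranking 22nd of all genes. MERTK is a receptor tyrosine kinase that binds GAS6 and protein S on dying cells and drives their engulfment. Mertk read 6.35, 6.41 and 6.52 in the lidocaine rats, against 5.66, 5.91 and 5.86 in the control rats. The difference was small but the spread was smaller, and the log2 change was 0.62 ± 0.09 (SE, adjusted p = 0.0031).

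**Figure D2:**
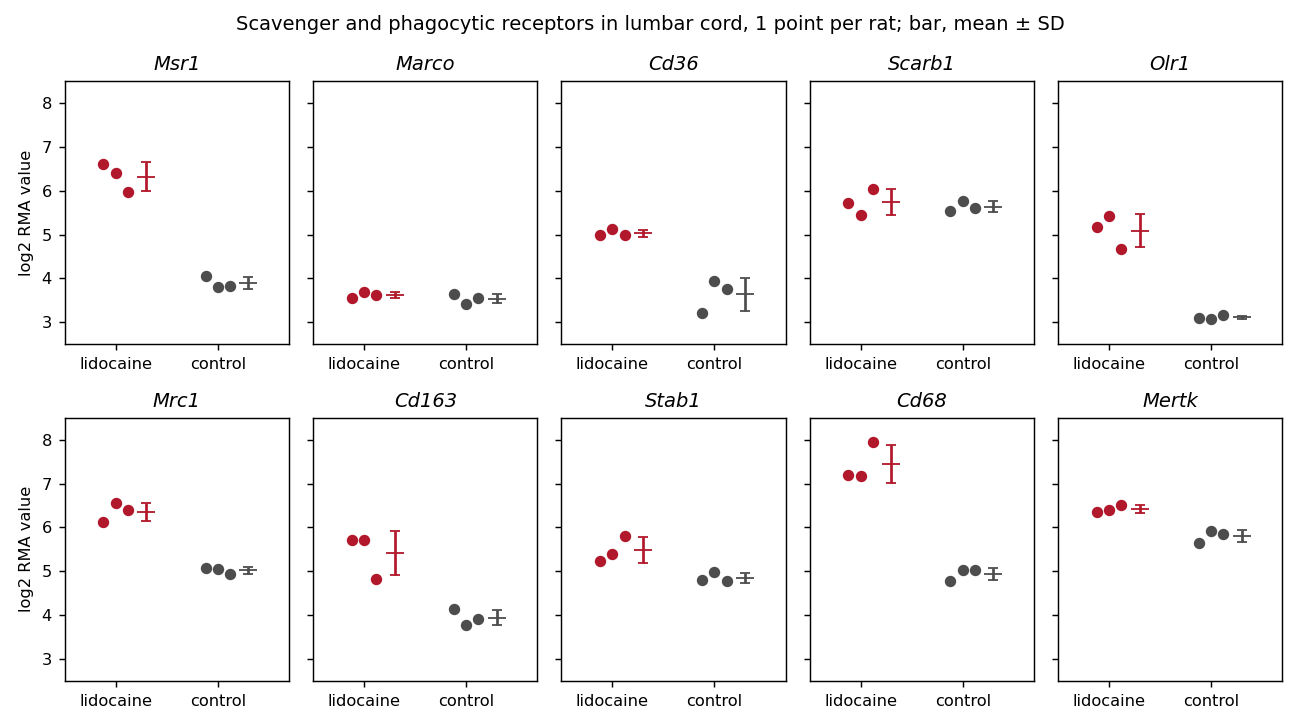
Log2 RMA value of each receptor (vertical axis) in the 3 lidocaine rats (red, left) and the 3 control rats (grey, right), with the group mean and SD beside the points. In 8 panels all red points lie above all grey points, and in those of Marco and Scarb1 they overlap; heights in different panels come from different probes and are not comparable.

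All lidocaine values lay above all control values in 8 of 10 receptors, against 15.9% of all genes. The control means of all 10 receptors lay below the 95th percentile of the negative control probes, which lay between 5.99 and 6.06 in the lidocaine group and between 5.79 and 5.87 in the control group, as did both group means of 72.2% of genes. The lidocaine means of Msr1, Mrc1, Cd68 and Mertk lay above that level. For dim genes the folds may be understated. A filter on genes with both means below that level keeps these 4 through their lidocaine means alone, so their calls after it are no further support.

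The lidocaine rats did not share a single order over the 8 receptors that rose. Rat 3 had the highest value of Stab1, Cd68 and Mertk and the lowest of Msr1, Cd36, Cd163 and Olr1. For Cd68 its value was 3.02 above the control mean, against 2.26 and 2.24 in lidocaine rats 1 and 2. For Cd163 it was 0.89 above, against 1.76 and 1.78, and for Olr1 1.57, against 2.05 and 2.32. The mean over the 8 receptors was nearly the same in each lidocaine rat, at 1.52, 1.63 and 1.49 above the controls. Among all 1992 genes that rose, rat 3 was highest in 50.7% and lowest in 26.3%. Without rat 3 the same 8 receptors were called, with a log2 change of 2.25 for Cd68, 1.77 for Cd163 and 0.46 for Stab1.

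**Figure D3:**
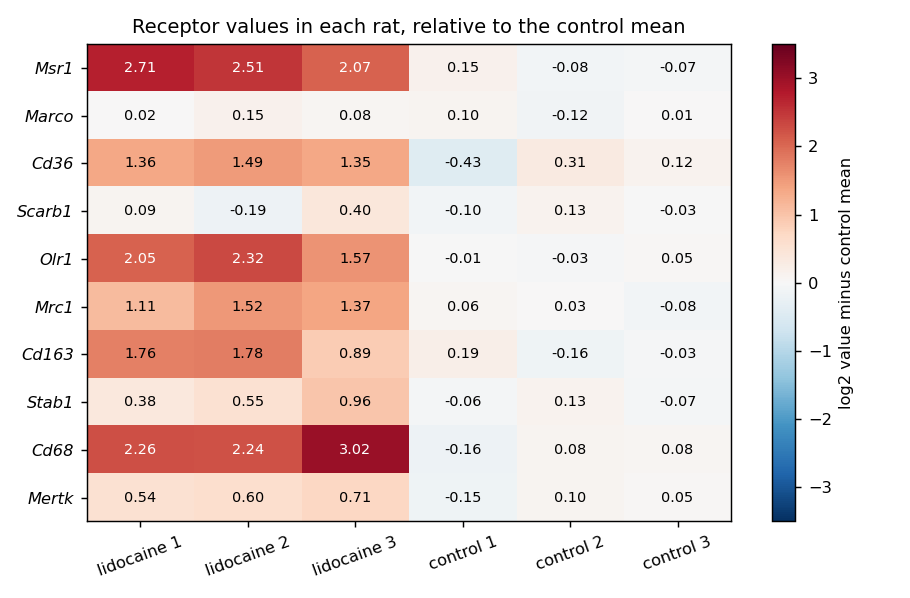
Each receptor's log2 value minus its control mean (colour and printed number) in every rat, lidocaine rats at left and control rats at right. Lidocaine rat 3 is strongest for Cd68, at 3.02, and weakest for Cd163, at 0.89, among the lidocaine rats.

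The receptors were also set against Csf1r, the growth factor receptor carried by microglia and macrophages in general, whose log2 change was 1.27 ± 0.08 (SE, adjusted p = 9.76e-05). Within each array, the value of Csf1r was subtracted from that of each receptor, and the result was compared between groups by an exact two-sided permutation test, which with 3 rats per group cannot give a p below 0.1. Relative to Csf1r, Cd68 was higher in all lidocaine rats by 1.24 on average, Msr1 by 1.17 and Olr1 by 0.71. Stab1 and Mertk, which rose, were lower relative to Csf1r in all lidocaine rats, with mean differences of -0.64 and -0.65, as were Marco and Scarb1, at -1.18 and -1.16. Each of these 7 had the smallest possible exact p of 0.1, among 10 such comparisons (permutation test, Benjamini-Hochberg adjusted p = 0.143). Because Csf1r itself rose by 1.27, a receptor that changed little lies lower after the subtraction. The values of Marco and Scarb1 thus restate the rise of Csf1r. The control mean of Csf1r, 7.49, lay above the 95th percentile of the negative control probes, and those of all 10 receptors lay below it. A fold understated for a dim receptor, such as Stab1 or Mertk, would lower its value relative to Csf1r. This was not tested. Cd36, Mrc1 and Cd163 differed by 0.13, 0.07 and 0.21 with overlapping groups (exact p = 0.6, 0.7 and 0.6). The Mertk difference was the most even of those below Csf1r, at -0.67, -0.62 and -0.66 in the 3 lidocaine rats.

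Genes whose 6 values moved most like a receptor's were found as the smallest root mean square distance over the 6 arrays, each value taken relative to its gene's control mean. Closest to Msr1 were the oncostatin M receptor gene Osmr, Glipr1 and Plac8, at 0.13, 0.15 and 0.15. Closest to Mrc1 were Medag, Pilra and Arpc1b, a subunit of the actin-nucleating Arp2/3 complex, at 0.10, 0.11 and 0.11. Closest to Mertk were Rps2, Irgm and Scara5, a class A scavenger receptor that takes up ferritin, each at 0.04. Closest to Scarb1 were Lmf2, Crybg3 and Pcdhgb1, at 0.04, 0.06 and 0.07. By this measure genes with a change of like size are close. Rps2, Irgm and Scara5 had log2 changes of 0.63, 0.59 and 0.65, beside 0.62 for Mertk. Lmf2, Crybg3 and Pcdhgb1 had 0.12, 0.08 and 0.10, beside 0.10 for Scarb1. A small distance thus does not show that genes moved together from rat to rat. These distances describe 6 arrays and carry no test.

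The counts of the lists that follow stand beside the 9.7% of all genes that rose and the 14% that fell. Of 20 other scavenger receptors measured, 7 rose, 1 fell and 12 did not pass, with a median log2 change of 0.14. Cd5l, Cd207 and Cd209a, which did not pass, lay below the median of the negative controls in both groups, so they carry no information. Clec7a, a receptor for fungal glucans, had a log2 change of 3.66, Cd44, the hyaluronan receptor, 1.60 and Cxcl16, a membrane chemokine that also binds oxidised lipoprotein, 0.82 (adjusted p = 1.92e-05, 5.59e-05 and 0.000573). Vldlr, a lipoprotein receptor, fell by 0.44. The class A relative Scara5 rose by 0.65, while Colec12, another, had a log2 change of 0.24, and Scarb2, a lysosomal relative of Scarb1, had 0.07, and neither passed. Scara5, Colec12, Scarb2 and Vldlr were chosen after their values were seen.

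Phagocytic and engulfment receptors rose in 14 of 24 cases, 2 fell and 8 did not pass (median log2 change 0.36). Timd4 and Havcr1, which did not pass, lay below the median of the negative controls in both groups, and Vsig4, which rose, did so in the control rats. The signalling adaptors Tyrobp and Fcer1g rose by 1.81 and 1.24 and the inhibitory Fc receptor gene Fcgr2b by 2.80 (adjusted p = 3.31e-05, 5.59e-05 and 0.000172). In MERTK's own kinase family Mertk rose by 0.62 and Axl by 0.87 (adjusted p = 0.0256), and Tyro3 had -0.19 (adjusted p = 0.149). The Axl call was lost without any 1 of the control rats (adjusted p = 0.0773, 0.0674 and 0.0656). The receptors that fell were Megf10, used by astrocytes to engulf synapses, and Adgrb1, a receptor for phosphatidylserine, by 0.43 and 0.42. Axl, Tyro3, Megf10 and Adgrb1 were chosen after their values were seen.

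Among bridging ligands and tags of dying cells 8 of 15 rose, 2 fell and 5 did not pass (median 1.22). The complement subunit gene C1qb rose by 2.34, the galectin gene Lgals3 by 2.71 and annexin A1, Anxa1, by 2.08 (adjusted p = 2.6e-05, 3.37e-05 and 3.75e-05). Both ligands of MERTK named above were measured. Pros1, which encodes protein S, read 7.15 ± 0.11 in lidocaine rats and 5.90 ± 0.11 in control rats (SD, n = 3 each, log2 change 1.25, adjusted p = 0.00016). Gas6 read 7.45 ± 0.10 in lidocaine rats and 7.72 ± 0.03 in control rats (SD, n = 3 each, log2 change -0.27, adjusted p = 0.0261). The Gas6 call was lost without any 1 of the control rats or without lidocaine rat 1 or 3 (adjusted p 0.0536 to 0.0886), with the replicate block (adjusted p = 0.0619), and when the named genes were quantile-normalised (adjusted p = 0.0763), where 0 genes of the list fell. Pros1 and Gas6 were chosen after their values were seen. Engulfment signalling and phagosome genes rose in 11 of 20 cases, with 1 lower and 8 that did not pass (median 0.37). The Rac activator Vav1 rose by 1.17, the NADPH oxidase subunit gene Ncf1 by 1.29 and the haematopoietic GTPase gene Rac2 by 1.66 (adjusted p = 5.85e-05, 0.000146 and 0.000149).

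In lipid handling 6 of 16 rose, 2 fell and 8 did not pass (median 0.15). Fabp4, which did not pass, lay below the median of the negative controls in both groups. Gpnmb, a glycoprotein of lipid-laden phagocytes, rose by 3.65, Spp1, encoding osteopontin, by 1.14 and Plin2, a coat protein of lipid droplets, by 1.21 (adjusted p = 5.08e-05, 0.000767 and 0.000794). Among 9 haemoglobin and haem clearance genes 2 rose, 1 fell and 6 did not pass (median 0.07), so 3 of 9 changed either way, where 23.7% of all genes did. Hpx, which did not pass, lay below the median of the negative controls in both groups. Hp, Hmox1 and Trf of the same list were not analysed, so the 9 genes cover only part of it. The phagosomal metal transporter Slc11a1 rose by 1.34 and ferritin heavy chain, Fth1, by 0.27, and the iron exporter Slc40a1 fell by 0.44 (adjusted p = 0.00459, 0.0186 and 0.0251). The Fth1 call was lost without lidocaine rat 1 (adjusted p = 0.0517) or control rat 3 (adjusted p = 0.0787), and that of Slc40a1 when control rat 2, control rat 3, lidocaine rat 1 or lidocaine rat 2 was left out (adjusted p 0.0652 to 0.0845). Of 5 measured genes of the HDL partner list, which covers HDL and other lipid transport beside Scarb1, 0 passed, also at an unadjusted limma p under 0.05. Abcb4, Apoa1 and Pltp had 0.21, 0.04 and 0.14 (limma, adjusted p = 0.142, 0.749 and 0.749). Lipc lay below the median of the negative controls in both groups. Of 5 genes for release of soluble receptors 2 rose and 3 did not pass, with Rhbdf2 and Timp3, an inhibitor of metalloproteases, at 0.57 and 0.74 (adjusted p = 0.0025 and 0.0137), and Adam17, the sheddase, at 0.21 (adjusted p = 0.12). Adam17 passed when the named genes were quantile-normalised (0.29, adjusted p = 0.0347).

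Transcription factors linked to these receptor genes rose in 10 of 15 cases, 0 fell, also at an unadjusted limma p under 0.05, and 5 did not pass (median 0.42). Cebpd rose by 1.92, Spi1, which encodes PU.1, by 0.81 and Tfec by 2.03 (adjusted p = 0.000172, 0.000253 and 0.000572). Tfec lay below the median of the negative controls in the control rats. Pparg, a nuclear receptor known to induce Cd36, had a log2 change of 0.03 (adjusted p = 0.752), which turned to -0.01 and -0.06 when arrays were centred or quantile-normalised, and was chosen after its value was seen. In alternative activation, the macrophage state for which Mrc1 is a marker, 5 of 12 genes rose, 0 fell, likewise at an unadjusted p under 0.05, and 7 did not pass (median 0.51). Il10ra, Cd200r1 and Il4r, receptors for interleukin-10, CD200 and interleukin-4, rose by 0.69, 0.93 and 1.08 (adjusted p = 0.000721, 0.000888 and 0.00491), and Cd200r1 lay below the median of the negative controls in the control rats. The classical markers Arg1, Chi3l3 and Retnla, chosen after their values were seen, had 0.71, -0.10 and -0.06, and none of the 3 passed. Chi3l3 and Retnla, and Il10 of the same list, lay below the median of the negative controls in both groups, so their differences carry no information on these genes. Without lidocaine rat 3 Arg1 rose by 1.07 (adjusted p = 0.00586).

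Markers of border macrophages, blood monocytes and microglia had median log2 changes of 0.92, 1.55 and 0.56, and those of neutrophils, described below, 1.49. Of 10 border-associated macrophage markers, which include the receptors Mrc1 and Cd163 themselves, 8 rose and 2 did not pass. Their mean log2 value was 4.97 to 5.17 in the lidocaine rats and 4.11 to 4.25 in the control rats. Folr2 and Pf4 rose by 2.07 and 1.21 (adjusted p = 4.36e-05 and 0.000993). Cbr2, which did not pass, and Ms4a7, which is counted among the 8 that rose, were below the median of the negative controls in both groups. The call of Ms4a7 therefore carries no information on that gene. Of 9 blood monocyte markers 7 rose and 2 did not pass, with a mean of 5.44 to 5.57 in the lidocaine rats and 4.27 to 4.37 in the control rats. Lyz2, Vcan and Fn1 rose by 1.55, 1.58 and 2.08 (adjusted p = 3.56e-05, 5.59e-05 and 0.000424), and Ms4a3 and Treml4 were below the median of the negative controls in both groups. Vcan and Fn1 already had control means of 6.37 and 7.18, above the 95th percentile of the negative control probes. Which cells made their RNA was not tested. Of 10 homeostatic microglia markers 6 rose and 4 did not pass, with a mean of 5.90 to 6.20 in the lidocaine rats and 5.15 to 5.22 in the control rats. Fcrl2 and Slc2a5 rose by 3.81 and 0.94 (adjusted p = 0.000166 and 0.000778), and Siglech was below the median of the negative controls in both groups. Their part in the rise of the receptors was not tested.

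Of 10 neutrophil markers 6 rose and 4 did not pass, with a mean of 4.79 to 5.07 in the lidocaine rats and 3.58 to 3.84 in the control rats. S100a9, S100a8 and Mmp8 rose by 2.26, 1.45 and 1.95 (adjusted p = 0.000304, 0.000418 and 0.000678), and Ltf was below the median of the negative controls in both groups. Camp, Ngp and Padi4, the others that did not pass, had 0.30, 0.34 and 0.09 (adjusted p = 0.62, 0.751 and 0.475). These genes were chosen after their values were seen. Of 9 endothelial markers, relevant to Stab1, Cd36 and Scarb1, 1 rose, 1 fell and 7 did not pass, where 23.7% of all genes changed either way, with a mean of 6.15 to 6.37 in the lidocaine rats and 6.25 to 6.47 in the control rats. Slco1c1 fell by 0.95, Vwf rose by 0.59 and Pecam1 had 0.17 (adjusted p = 0.00163, 0.00818 and 0.206). Of 10 leptomeningeal fibroblast markers 1 rose, 2 fell and 7 did not pass, beside the same share, with a mean of 6.69 to 7.42 in the lidocaine rats and 6.87 to 7.16 in the control rats, and Dcn rose by 0.71 while Igf2 and Ptgds fell by 0.77 and 0.84. Of 5 erythroid genes 0 passed and 1 was lower at an unadjusted limma p under 0.05. Their mean was 4.85 to 5.86 in the lidocaine rats and 5.48 to 5.57 in the control rats, and Ahsp was below the median of the negative controls in both groups. Alas2, Hba-a1 and Hbb had log2 changes of -0.66, -0.41 and -0.31 (adjusted p = 0.114, 0.263 and 0.476), and without lidocaine rat 3 each fell, by 1.01, 0.71 and 0.64 (adjusted p = 0.001, 0.00834 and 0.0148). Of 6 astrocyte markers 1 rose, 3 fell and 2 did not pass, with a mean of 7.61 to 7.93 in the lidocaine rats and 7.94 to 8.07 in the control rats. Aldh1l1 and Gjb6 fell by 0.56 and 0.68 and Gfap rose by 0.80, and the Gjb6 call was lost without control rat 1 or 2 (adjusted p = 0.0563 and 0.0575). The 12 measured markers listed for lumbar cord all lay above the median of the negative controls in both groups. A filter on genes with both means below that median kept 15753 of 20530 genes. Lying above it is thus common and cannot check the labelled tissue. Of the 12 markers 8 fell, 0 rose, also at an unadjusted limma p under 0.05, and 4 did not pass. The mean of the 12 was 6.07 to 6.40 in the lidocaine rats and 6.63 to 6.70 in the control rats. Snap25, Rbfox3 and Chat fell by 0.45, 0.53 and 0.58.

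**Figure D4:**
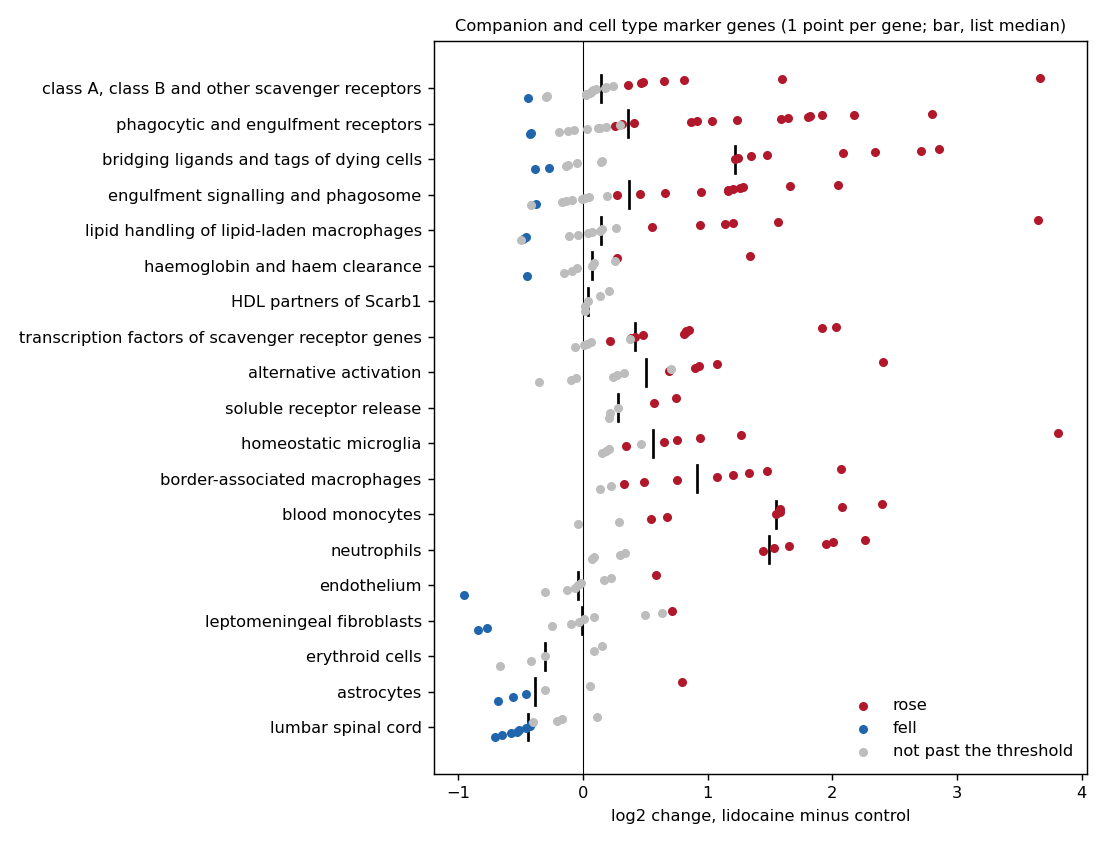
Log2 change, lidocaine minus control, of each measured gene (point) in the companion and marker lists (rows), with the list median as a black bar. Points are red where the gene rose, blue where it fell and grey where it did not pass. Monocyte, neutrophil and bridging ligand lists have medians of 1.55, 1.49 and 1.22, and the HDL partner list holds grey points only.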

How the data were processed

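Total RNA (150 ng per rat) from lumbar cord was labelled with biotin and hybridised to 1 Affymetrix array per rat, per the labels' protocols. The authors deposited log2 values after RMA, per the submitters' processing notes. The sources used here do not give the software version or the genome build. Since RMA equalises arrays, each change is measured against the rest of the array. The labels give no batch, and the number of arrays limits the precision. Correlations over 63789 transcript clusters were 0.995 within the lidocaine group, 0.994 to 0.996 within the control group and 0.987 to 0.992 between groups.

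The platform annotation gave 1 gene for 21560 clusters, several for 471 and none for 41758. Symbols were updated by gene identifier through a RefSeq table of GRCr8 (20304 matched, 1 changed). The brightest cluster per gene over the 6 arrays was kept, leaving 20530 genes. Groups were taken from the sample titles and fitted with limma 3.58.1 (lmFit and eBayes, R 4.3.3), with Benjamini-Hochberg adjustment over all genes. Adjusted p-values are limma's unless another test is named, and intervals are those of the moderated fit. A gene is called below the median of the negative controls where its group mean lies below the mean of that median over the group's arrays, among 1153 control rows. The receptors and lists were chosen with earlier results of these data known. List genes with no match by symbol were matched by synonym where only 1 measured gene carried it, as were Fcrls to Fcrl2, Chil3 to Chi3l3 and Il4ra to Il4r. Of 269 list genes, 39 were not analysed here. The text names every receptor, the 3 genes with the smallest p of each list (2 where 1 of them is a receptor or Csf1r, which are described apart), the 3 nearest to each of 4 receptors, and others marked as chosen after their values were seen. Alternatives were other rows per gene, scalings, filters, variance models, array weights, a replicate block and leaving out each rat.

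The replicate numbers of the titles were checked for pairing: the deviations of same-numbered rats from their group means correlated at -0.06, -0.24 and 0.14, so the numbers were not taken to pair the rats.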

Additional observations from a re-analysis of the deposited data

How the results depend on the processing

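Of 134 values of the 10 receptors under the alternatives, 130 kept their direction and their side of the threshold, 2 lost the call (both Stab1) and 2 changed sign. Those were Marco, at -0.014 under quantile normalization of the named genes, and Scarb1, at -0.051 without lidocaine rat 3 (-0.051 to 0.24 with 1 rat left out). Neither was called in any setting, and the cause was not tested. The count of receptors that rose was 8 under every alternative except the fits without control rat 1 or 3 and the stricter filter, where it was 4 of 4 tested, all kept by their lidocaine means alone, so that this count bears on nothing; leaving out 1 rat at a time gave 7 to 8 that rose and 0 that fell. The count of genes changed over all 20530, 4867, was 2754 to 4335 with 1 rat left out, 2754 without control rat 2 and 2906 without control rat 3, and 3003 under the stricter filter, where 5698 genes were tested. Centring the arrays on their medians gave 5847 calls, of which 30.1% were rises, against 40.9%, and the median change over all genes moved to -0.06. With the replicate number as a block, 4005 genes and the same count of 8 receptors were called. Other sign changes were those of Apoa1, at -0.0053 with centred arrays, -0.051 with quantile normalization and -0.022 without control rat 2 (-0.022 to 0.087 with 1 rat left out), Pltp, at -0.18 without lidocaine rat 3 (-0.18 to 0.33), and Pparg, at -0.014 with centred arrays and -0.058 with quantile normalization. Of 954 values of the other named genes 923 kept their call and direction, 18 lost the call and 7 gained it. Signals near the negative control probes limit what can be said of Marco and of the control levels of Olr1, Cd36 and Msr1.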

Other observations

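The order of the lidocaine rats was counted over the genes of each companion and marker list that rose, beside all 1992 genes that rose, of which rat 3 was highest in 50.7% and lowest in 26.3%. In the neutrophil markers that rose rat 3 was lowest in 6 of 6. Of those that did not pass, 2 had their highest value in rat 3. Ngp read 4.04, 5.31 and 6.90 and Camp 2.97, 3.75 and 4.67 in lidocaine rats 1, 2 and 3. Padi4 and Ltf were highest in rat 2, so the neutrophil list did not share a single order. Relative to the control mean, Lcn2, an iron-binding granule protein, was 1.54 higher in rat 3, against 2.39 and 2.09 in lidocaine rats 1 and 2. The neutrophil chemokine receptor gene Cxcr2 was 0.88 higher, against 1.42 and 2.29. Among transcription factors of the receptor genes rat 3 was lowest in 6 of 10 and highest in 3. In alternative activation it was lowest in 3 of 5, among them Il1rn, the interleukin-1 receptor antagonist, at 1.18 against 3.15 and 2.90.

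In homeostatic microglia markers rat 3 was highest in 5 of 6, and in the other scavenger receptors in 6 of 7. In lipid handling it was highest in 4 of 6. The cholesterol exporter gene Abca1 was 2.25 higher in rat 3, against 0.95 and 1.49 in rats 1 and 2, and Gpnmb 4.14, against 3.36 and 3.45. Plin2 was highest in rat 1, at 1.49, against 1.00 in rat 2 and 1.13 in rat 3, and Spp1 was lowest in rat 3, at 1.06, against 1.21 and 1.15. Over the 95 companion and marker genes that rose, rat 3 was highest in 46 and lowest in 41. Lcn2, Cxcr2, Ngp, Camp, Padi4, Ltf, Il1rn and Abca1, and the lists described here, were chosen after their values were seen. These values describe 3 rats and were not tested.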
